A study of Mus musculus with 2 samples.

Results

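The 10 genes described here encode proteins of the vessel wall: the receptors for vascular endothelial growth factors (VEGFs) Kdr, Flt1 and Flt4, the Tie receptors Tek and Tie1, the junction genes Cdh5, Pecam1 and Esam, and the sialomucin genes Cd34 and Emcn. They are listed by name, and the rule that lists them uses no measured value. All 10 were found among the 18131 genes of both libraries. The libraries were 3′ droplet single-cell RNA libraries (10x, v3 chemistry) of tissue cut from E9.5 mouse embryos (C57BL/6) between the mid otic placode and the back of somite 4, the region of the cardiac neural crest. One of them, called WT, came from embryos of the genotype Prdm6+/+; Wnt1-Cre2; ZsGreen1. The other, called KO, had the genotype Prdm6f/f; Wnt1-Cre2; ZsGreen1. Both genotypes carried Wnt1-Cre2, which makes Cre in the Wnt1 lineage that gives the neural crest, and the ZsGreen1 reporter, and neither was treated. Most endothelium is held to arise outside that lineage, and recombination in the endothelial cells of these libraries was not measured, since ZsGreen1 is not among the genes used here. Embryos were not told apart in the values used, which left 1 library per genotype: no test of genotype was possible, and every interval below is a 95% interval for counting error only.

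VEGFs are secreted by many tissues and are read by receptor tyrosine kinases on endothelium. Kdr (VEGFR2) carries most of the growth signal, Flt1 (VEGFR1) binds VEGF-A tightly and signals weakly, also in a soluble form, and Flt4 (VEGFR3) binds VEGF-C and VEGF-D. Tek (TIE2) is the receptor of the angiopoietins, and Tie1 is its partner without a ligand of that family that binds it directly. Cdh5 (VE-cadherin) joins neighbouring endothelial cells at adherens junctions, Pecam1 (CD31) and Esam are immunoglobulin-like adhesion proteins of the same contacts, and Cd34 and Emcn (endomucin) coat the surface with sialylated sugars. Blood cells and their precursors can also express Pecam1, Cd34 and Esam.

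By GENCODE vM21 (GRCm38) the genes lie apart from each other: Kdr on chromosome 5 (75932827 to 75978458, minus strand), Flt1 on chromosome 5 (147561604 to 147726011, minus), Flt4 on chromosome 11 (49609263 to 49652739, plus), Tek on chromosome 4 (94739289 to 94874976, plus) and Tie1 on chromosome 4 (118471191 to 118490061, minus). Cdh5 lies on chromosome 8 (104101625 to 104144511, plus), Pecam1 on chromosome 11 (106654217 to 106750628, minus), Esam on chromosome 9 (37528078 to 37538319, plus), Cd34 on chromosome 1 (194938819 to 194961279, plus) and Emcn on chromosome 3 (137341067 to 137432185, plus). No gene overlapped a member on its own strand. Gm29682 overlapped Cdh5 and Gm16897 overlapped Cd34 on the other strand, and whether the counting used strand is not stated. The counts do not separate the soluble from the membrane form of Flt1.

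The 10 genes were found together in the same cells, as described below, and the 250 bases before the RefSeq start (GRCm38.p6) are shown for the 4 members that held AGGAAG on either strand there, the core of many sites of ETS factors, a family known to act in endothelium. Each run is printed 5′ to 3′ on the strand of its gene, and capitals mark AGGAAG or its reverse complement CTTCCT.
Flt1, chr5:147726012-147726261, minus strand: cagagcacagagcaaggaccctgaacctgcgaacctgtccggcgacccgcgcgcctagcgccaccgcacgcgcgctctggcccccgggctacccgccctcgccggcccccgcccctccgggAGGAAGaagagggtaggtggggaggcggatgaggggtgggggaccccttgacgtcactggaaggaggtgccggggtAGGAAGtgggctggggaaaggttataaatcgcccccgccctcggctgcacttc
Tie1, chr4:118489850-118490099, minus strand: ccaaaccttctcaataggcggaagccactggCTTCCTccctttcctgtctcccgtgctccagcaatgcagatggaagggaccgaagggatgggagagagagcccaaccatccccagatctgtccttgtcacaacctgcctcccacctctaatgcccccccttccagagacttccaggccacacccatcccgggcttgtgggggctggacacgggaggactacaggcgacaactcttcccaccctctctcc
Cd34, chr1:194938571-194938820, plus strand: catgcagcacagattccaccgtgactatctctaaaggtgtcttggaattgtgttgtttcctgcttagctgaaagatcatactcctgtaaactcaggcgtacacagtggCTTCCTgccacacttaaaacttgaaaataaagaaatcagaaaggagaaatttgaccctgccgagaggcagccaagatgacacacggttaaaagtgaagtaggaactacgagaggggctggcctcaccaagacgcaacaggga
Emcn, chr3:137340828-137341077, plus strand: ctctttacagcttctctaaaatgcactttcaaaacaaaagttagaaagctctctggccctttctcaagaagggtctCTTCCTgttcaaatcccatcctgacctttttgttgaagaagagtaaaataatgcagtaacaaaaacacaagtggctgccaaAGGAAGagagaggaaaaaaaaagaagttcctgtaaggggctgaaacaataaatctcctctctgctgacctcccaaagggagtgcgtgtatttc
Of the 10 genes, 7 had an entry in this table. The core was present in 4 of these 7 (Flt1 and Emcn with 2 matches each, Tie1 and Cd34 with 1) and in 29.5% of 32851 promoters of the same length. GATAAG, the core of GATA sites, was in 0 of the 7 and in 6.55% of all promoters. A match is only a run of letters, and no binding was measured.

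There were 11958 cells in WT and 9765 in KO, and the median cell had 1597 unique molecular identifiers (UMIs) in WT and 1703 in KO. Prdm6, the targeted gene, had 104 UMIs in WT and 59 in KO over all cells, a log2 ratio of KO over WT of −0.68 (−1.17 to −0.21), and 3′ counts do not tell a deleted from an intact allele. The labels call the cells cardiac neural crest cells. The marker gate for migrating neural crest took 1.81% of WT and 1.83% of KO cells, and Prdm6 had 1 UMI there in WT and 2 in KO. Cells were placed in 12 gates by the class of which most of its 12 markers were detected, with at least 3 and no tie, and no member of the 10 was a marker. This rule left 46.9% of WT and 45.1% of KO cells in no gate. Exactly 2 crest markers were found in 467 WT and 413 KO cells, so the crest share counts only cells that met the rule. The endothelial gate held 333 WT cells (2.78%, 2.497 to 3.10) and 250 KO cells (2.56%, 2.26 to 2.89). All 12 endothelial markers, such as Egfl7, Cldn5 and Sox17, which set the gate, were found there in both libraries. Of markers of other cells, the 12 of cardiac muscle summed to 836 CPM (UMIs per 1000000 UMIs of a gate, with no length correction, since each 3′ fragment counts once) in the WT and 793 in the KO endothelial gate, against 4271 and 3549 over all cells, and the erythroid ones to 61.7 and 18.2, against 340.1 and 169. The megakaryocyte ones were higher in the gate (134 and 111 against 18.3 and 26.0), with Ppbp, Gp9, Gp1bb, Gp5, Treml1 and Gp6 at 0 in both libraries, as were the 7 macrophage markers measured (36.5 and 43.4 against 6.64 and 6.18), with Lyz2 at 0 in both. Their part in the results below was not tested. The macrophage gate held 0 cells, but 5 of its markers were not among the genes used here. The cardiac muscle gate at 3 markers took 32.0% of WT and 35.5% of KO cells, so cells with at least 7 cardiac markers (724 WT and 435 KO cells), a limit set after seeing the data, are used for it where stated. The libraries shared 26 cell barcodes, of which 0 were in the endothelial gate.

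Among the gates with at least 50 cells, all 10 genes were highest in the endothelial gate in both libraries. Against the highest of the 9 other gates with at least 50 cells, a member's level in the endothelial gate was between 7.56 and 30.7 times as high, and in 20 of 20 pairs of gene and library its interval lay above those of all these gates. Erythroid cells served as the measure of stray RNA: the 10 genes summed to 3905 CPM in the WT endothelial gate and 69.7 in the WT erythroid gate (56.0-fold, 44.3 to 71.9), and to 3654.5 and 51.6 CPM in KO (70.8-fold, 48.2 to 109). Of the 71 WT erythroid UMIs, Cd34 had 15, Pecam1 4 and Esam 4, genes that blood cells can express themselves. In KO they had 4, 1 and 0 of 26. How far these put the erythroid sum above stray RNA was not tested. Median depth was 2308 UMIs in endothelial and 2057 in erythroid cells of WT, and 2860.5 and 2469 in KO.

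**Figure D1:**
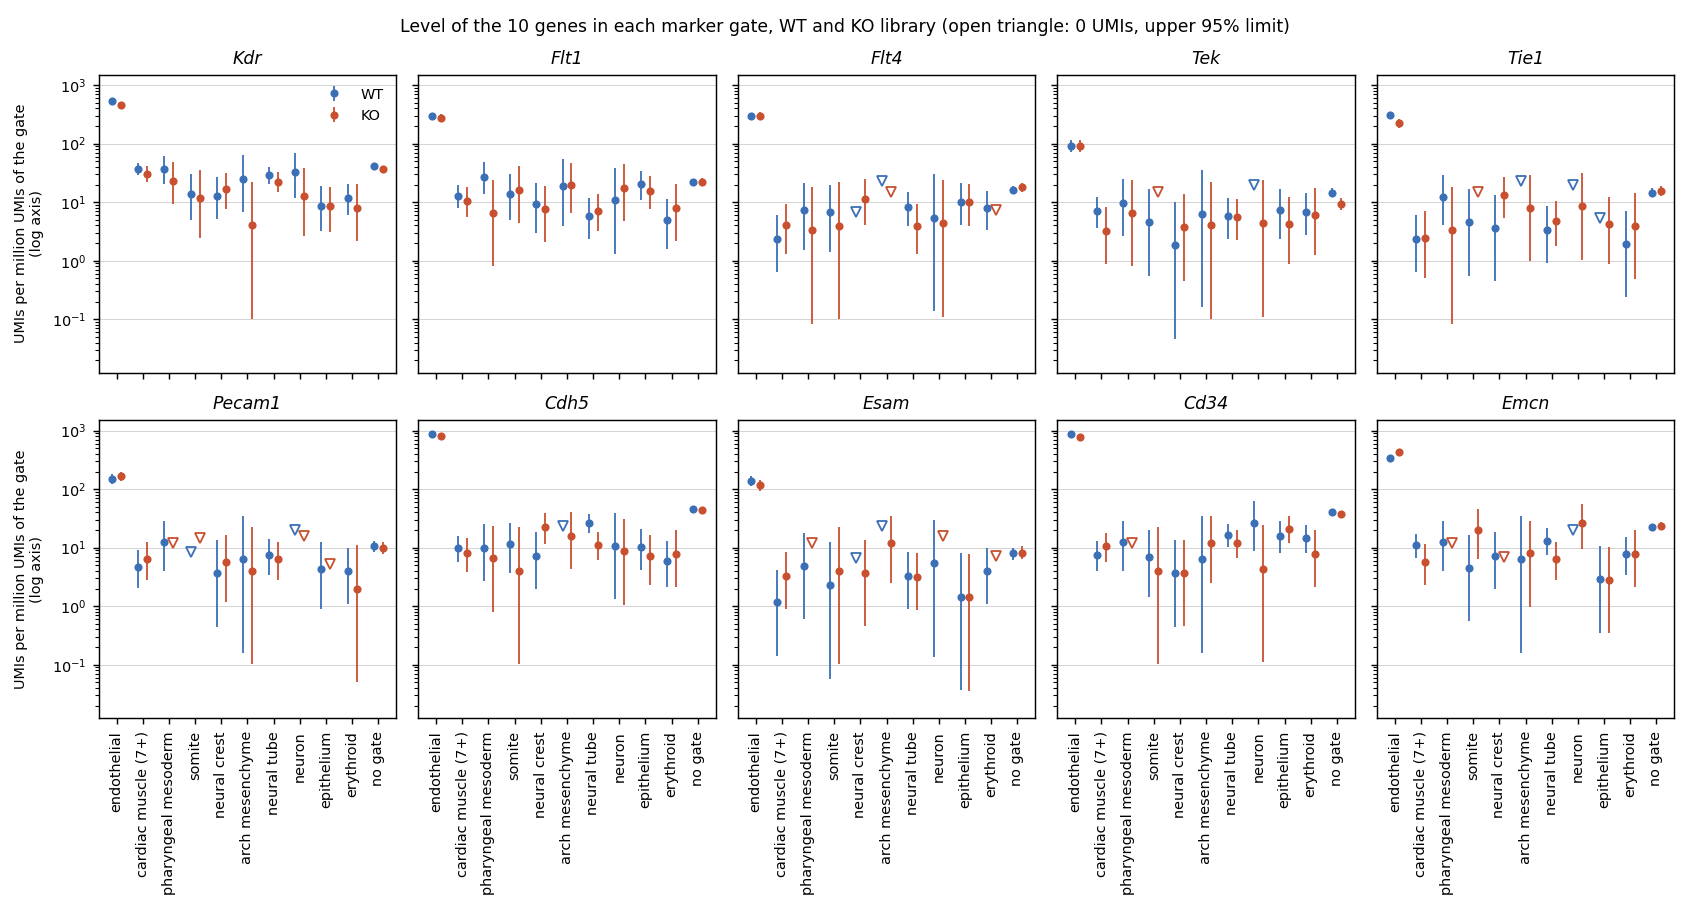
Level of each of the 10 genes (CPM, log axis) in the endothelial gate, 9 other marker gates (cardiac muscle at 7 markers or more) and ungated cells, with WT in blue, KO in red and bars for the 95% Poisson interval; an open triangle marks 0 UMIs at its upper limit. In every panel the endothelial gate stands above the other groups, from 91.95 CPM for Tek to 889 for Cdh5 in WT.

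Among the VEGF receptors, Kdr was the most abundant in the endothelial gate, with 424 UMIs and 534 CPM (484 to 587) in WT and 332 UMIs and 465 CPM (416 to 518) in KO. Flt1 had 297 CPM (261 to 338) in WT and 279 (241 to 320) in KO. Flt4 had 295 CPM (258 to 335) in WT and 299.8 (261 to 343) in KO, so that the intervals of Flt1 and Flt4 overlapped in both libraries. After each cell was thinned to 1000 UMIs, Kdr was found in 36.4% of WT and 31.2% of KO endothelial cells, against 1.07% and 1.02% of erythroid cells. Without thinning these shares were 65.5% and 63.2%, against 2.32% and 2.03%.

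The Tie receptors differed from each other. Tie1 had 246 UMIs and 309.9 CPM (272 to 351) in WT and 158 UMIs and 221 CPM (188 to 259) in KO. Tek had 73 UMIs in WT and 66 in KO, or 91.95 CPM (72.1 to 116) and 92.4 CPM (71.5 to 118), the lowest level of the 10 genes. Tek was also the member least concentrated in the gate: 23.7% of its WT and 30.8% of its KO UMIs lay there, whereas for Tie1 the shares were 53.4% and 43.2%. Its level in the WT endothelial gate was 13.4 times that of erythroid cells (6.18 to 34.5, on 7 erythroid UMIs).

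Of the junction genes, Cdh5 had the highest level of all 10, with 706 UMIs and 889 CPM (825 to 957) in WT and 576 UMIs and 807 CPM (742 to 875) in KO. It was found in 80.5% of WT and 81.6% of KO endothelial cells, and in 59.7% and 48.0% after thinning, against 0.429% and 1.52% of erythroid cells. Pecam1, a common stain for endothelium, was lower at 149.9 CPM (124 to 179) in WT and 165 (137 to 198) in KO, and was seen in 28.8% and 34.8% of the gate. Esam had 139 CPM (114 to 167) in WT and 118 (93.9 to 146) in KO. The 3 junction genes thus fell into a high one and 2 low ones, and the intervals of Pecam1 and Esam overlapped.

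Of the sialomucins, Cd34 had 681 UMIs and 858 CPM (795 to 925) in WT and 549 UMIs and 769 CPM (706 to 836) in KO, with intervals that overlapped those of Cdh5. A single KO cell held up to 16 Cd34 UMIs. Emcn had 271 UMIs and 341 CPM (302 to 384) in WT and 313 UMIs and 438 CPM (391 to 490) in KO. It was the 1 member with more UMIs in the KO than in the WT gate, although the KO gate held fewer cells.

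Of the other gates, 5 were set against the erythroid level gene by gene, and Kdr stood above it most often. In cells with at least 7 cardiac muscle markers it had 64 UMIs and 37.3 CPM (28.7 to 47.6) in WT (median depth 2328.5 UMIs) and 38 UMIs and 30.7 CPM (21.7 to 42.1) in KO (2948 UMIs), 3.16 times (1.69 to 6.44) and 3.87 times (1.39 to 14.9) its erythroid level. After thinning a Kdr UMI was in 4.202% (2.85 to 5.94) of these cardiac cells in WT and 2.995% (1.60 to 5.07) in KO, against 1.07% (0.349 to 2.49) and 1.02% (0.123 to 3.62) of erythroid cells, so that the shares were apart in WT and overlapped in KO. Of the 55 WT and 32 KO cardiac cells with Kdr, 8 and 4 held a UMI of another member. Tie1 (4 and 3 UMIs) and Flt4 (4 and 5 UMIs) were at 4.04 CPM or lower in the same cells. Kdr was also above the erythroid level in the WT neural tube gate (2.46-fold, 1.25 to 5.20), and in KO the interval there reached just below 1 (2.81-fold, 0.983 to 11.03). In the WT gate of pharyngeal and splanchnic mesoderm Kdr was at 3.14 times (1.37 to 7.34) and Flt1 at 5.52 times (1.77 to 20.3) the erythroid level, on 15 and 11 UMIs, and in KO, on 7 and 2 UMIs, both intervals included 1. Flt1 in the WT epithelium gate (4.14-fold, 1.41 to 14.7) and Cdh5 in the WT neural tube gate (4.50-fold, 1.85 to 13.2) also lay above it, as did Tie1 in WT pharyngeal and splanchnic mesoderm on 5 against 2 UMIs (6.28-fold, 1.03 to 65.9). Another member was found in 8 of the 26 neural tube cells with Kdr, in 9 of the 21 with Cdh5 (up to 6 UMIs in a cell), in 5 of the 12 mesoderm cells with Kdr and in 2 of the 13 epithelial cells with Flt1. In KO Flt1 in epithelium and Cdh5 in neural tube were at 1.96-fold (0.581 to 8.44) and 1.41-fold with intervals that included 1. Flt4 lay above the erythroid level in 2 KO gates, on 7 UMIs in epithelium and 6 in migrating neural crest against 0 in erythroid cells, where the lower limits of the fold were 1.03 and 1.12.

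In the migrating neural crest gate, one of those with cells of the Wnt1 lineage, the 10 genes summed to 27 UMIs in 217 WT cells and 47 UMIs in 179 KO cells, or 49.6 and 88.4 CPM (log2 ratio 0.83, 0.12 to 1.57). Of these UMIs, 20 in WT and 31 in KO lay outside the 1 WT and 2 KO cells that held at least 3 members. Without those cells the log2 ratio was 0.68, and its interval included 0 (−0.18 to 1.56). A UMI of any member was in 9.68% of WT and 16.8% of KO crest cells, whose median depth was 2449 and 2976 UMIs, and in 4.17% and 3.91% after thinning. These thinned shares were no higher than those of erythroid cells (6.01% and 6.09%), which count Pecam1, Cd34 and Esam too. The summed KO level, 88.4 CPM (65.0 to 118), was above the erythroid value of 51.6 CPM (33.7 to 75.6) with overlapping intervals. Flt4 had 0 UMIs in WT and 6 in KO crest cells, against 8 and 0 in erythroid cells. In the arch mesenchyme gate the sum was 11 UMIs in 67 WT cells and 22 UMIs in 92 KO cells (log2 ratio 0.35, −0.76 to 1.54). In the neural tube gate the sum lay the other way, with 144 UMIs in 660 WT cells and 104 UMIs in 598 KO cells (log2 ratio −0.52, −0.90 to −0.15), of which Cdh5 had 32 and 14 (−1.25, −2.27 to −0.30). Without the 6 WT and 4 KO cells with at least 3 members the sum was at −0.45, and its interval included 0 (−0.906 to 0.002). In the gate of pharyngeal and splanchnic mesoderm the sum was 59 UMIs in 197 WT cells and 15 UMIs in 124 KO cells (log2 ratio −1.55, −2.48 to −0.72). Without the 2 WT cells there with at least 3 members the ratio was −1.22 (−2.16 to −0.35). In the cardiac muscle gate at 3 markers the ratio of the sum was −0.02 (−0.13 to 0.10). Without its 68 WT and 76 KO cells with at least 3 members it was −0.34 (−0.50 to −0.18), on 760 and 591 UMIs. Cells were left out here by the same values that are compared, and the cause was not tested. In pharyngeal and splanchnic mesoderm the thinned share with any member was 12.95% in WT and 6.45% in KO. The WT sum of this gate, 145 CPM (111 to 188), lay above the erythroid sum (54.4 to 87.9), and the KO sum, 49.6 CPM (27.7 to 81.8), overlapped it.

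The members were found together. In the endothelial gate the median cell held UMIs of 5 of the 10 genes in both libraries, and 91.6% of WT and 93.6% of KO cells held at least 3. Outside the gate 2.16% of WT and 2.28% of KO cells did. Over all cells 4.65% of WT (556 cells, 4.28 to 5.04) and 4.62% of KO cells (451 cells, 4.21 to 5.05) held at least 3 members, and 3.02% and 2.44% after thinning. These cells carried 69.1% of all member UMIs in WT and 72.7% in KO, while the gate carried 45.7% and 45.0%, because 251 WT and 217 KO cells with at least 3 members lay outside it. Such outside cells had a median of 2 endothelial markers and a lower median depth, 1976 against 2354 UMIs in WT and 2399 against 2929.5 UMIs in KO for gated cells with at least 3 members. In the erythroid gate 2 of 474 WT and 1 of 197 KO cells had at least 3 members.

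**Figure D2:**
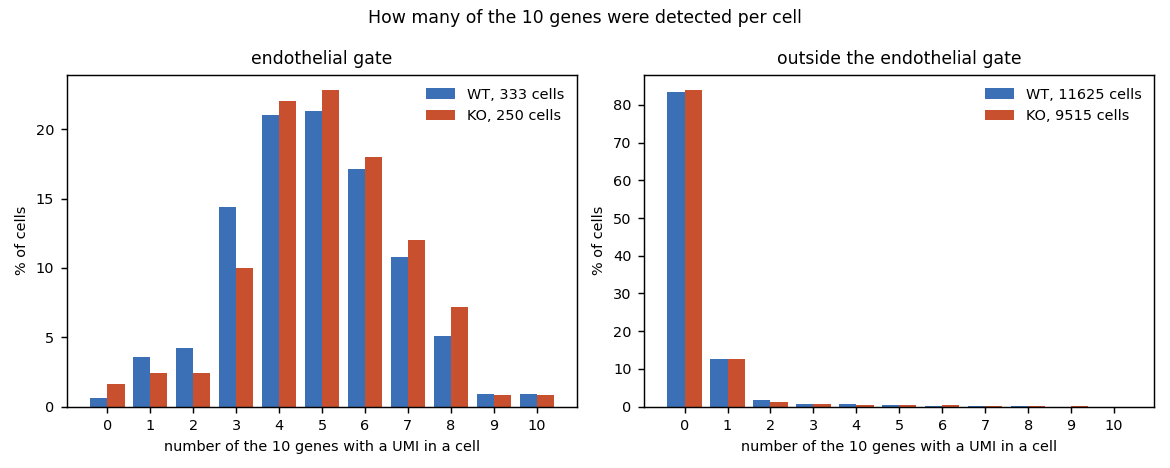
Share of cells (%) by the number of the 10 genes with a UMI in the cell, inside the endothelial gate (left) and outside it (right), with WT in blue and KO in red; the vertical axes differ. Inside the gate both libraries peak at 5 genes, and outside it 83.6% of WT and 83.9% of KO cells have 0.

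Within the gate the members went together only loosely. For 31 of the 45 pairs of members, cells with one gene held the other more often than cells without it in both libraries, and for 3 pairs less often in both. The correlation over cells of the square roots of their shares of a cell's UMIs had a median of 0.06 in WT (from −0.15 to 0.22) and 0.05 in KO (from −0.15 to 0.20), over 333 and 250 cells that share a library and differ in depth. These 3 pairs were Kdr with Tek, Flt4 with Tek and Flt4 with Emcn, and for Flt4 with Tek in KO the shares were 49.1% with Tek and 49.7% without it. Kdr was in 59.4% of the 64 WT gated cells with Tek and in 66.9% of the 269 without it, and in 49.1% and 67.0% in KO.

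The comparison of genotypes asks what differs in this tissue when Prdm6 is deleted in the Wnt1 lineage. Over all cells the 10 genes summed to 326 CPM (319 to 334) in WT and 306 CPM (299 to 314) in KO, a log2 ratio of KO over WT of −0.09 (−0.14 to −0.04). Over the 10513 genes with at least 200 UMIs the median log2 ratio was −0.06, and that of the members −0.12. With 1 library each, a gene was counted as past the fold at 1.2-fold over all cells: 15.9% of these genes were at least 1.2-fold lower and 6.46% at least 1.2-fold higher in KO. Of the 10 members 1, Tek, was lower by that fold and 0 were higher. The interval lay below 0 for 3 members (Kdr, Tek and Cd34) and above 0 for 1 (Emcn), and for 29.1% and 16.9% of all these genes. With median of ratios scaling the intervals of Kdr (−0.12, −0.25 to 0.00) and Cd34 (−0.07, −0.19 to 0.05) included 0, as they did with the trimmed mean, and after thinning so did that of Emcn (0.06, −0.18 to 0.30). Thinning put Pecam1 at −0.45 (−0.84 to −0.07), from −0.02, and Cdh5 at −0.35 (−0.53 to −0.18), from −0.11. In bulk sums like these, fewer endothelial cells and less RNA per cell cannot be told apart. The sum was −0.03 (median of ratios) and −0.04 (trimmed mean) under other scalings, where its interval included 0 (−0.09 to 0.02 and −0.09 to 0.01). It was −0.25 when each cell was thinned to 1000 UMIs. Thinning could not use the shallower cells, 1361 in WT and 125 in KO.

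The endothelial share of cells had a log2 ratio of −0.12, with overlapping intervals. Median depth was higher in KO. When the gate was set after thinning to 1000 UMIs, 1.52% of WT (1.295 to 1.77) and 0.840% of KO cells (0.668 to 1.04) passed it. These intervals did not overlap, and the log2 ratio was −0.85 (−1.26 to −0.46). The 12 endothelial markers summed to 229 CPM in WT and 191 CPM in KO over the thinned cells and to 239 and 212 CPM over all UMIs. The part of depth in these shares was not tested.

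Within the endothelial gate no member reached the fold used. The summed log2 ratio in the gate was −0.10 (−0.17 to −0.02). With median of ratios scaling it was −0.04 (−0.12 to 0.04) and with the trimmed mean −0.04 (−0.12 to 0.03), so that the interval then included 0, as it did with at least 4 markers (−0.08, −0.16 to 0.01) and with the gate set after thinning (−0.08, −0.20 to 0.04). Of 3157 genes with at least 100 UMIs in the gate, 2.91% were at least 1.5-fold lower and 2.44% at least 1.5-fold higher in KO, with a median log2 ratio of 0.00. Of the members 0 were past 1.5-fold in either direction, 6 were below and 4 above 0, and their median was −0.12. The intervals of 8 members included 0, among them Cdh5 (−0.14, −0.30 to 0.02), Cd34 (−0.16, −0.32 to 0.01), Kdr (−0.20, −0.41 to 0.01), Flt4 (0.02, −0.25 to 0.30) and Tek (0.01, −0.49 to 0.51). The interval of Kdr lay below 0 with the gate set after thinning (−0.36, −0.72 to −0.01), and that of Cd34 with at least 2 markers (−0.17, −0.33 to −0.01) and with no exclusion by other classes (−0.18, −0.33 to −0.03). Cells with at least 3 other members, taken in place of the gate, put both just below 0. Kdr was then at −0.19 (−0.37 to −0.006) and Cd34 at −0.14 (−0.29 to −0.001). In the main gate the interval lay below 0 for 1 member, Tie1, and above 0 for 1, Emcn, which is close to the shares over all genes tested in the gate, 8.9% below and 11.4% above. The 5th and 95th percentiles of the log2 ratio over those genes were −0.50 and 0.48, and Tie1 and Emcn lay within that range.

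**Figure D3:**
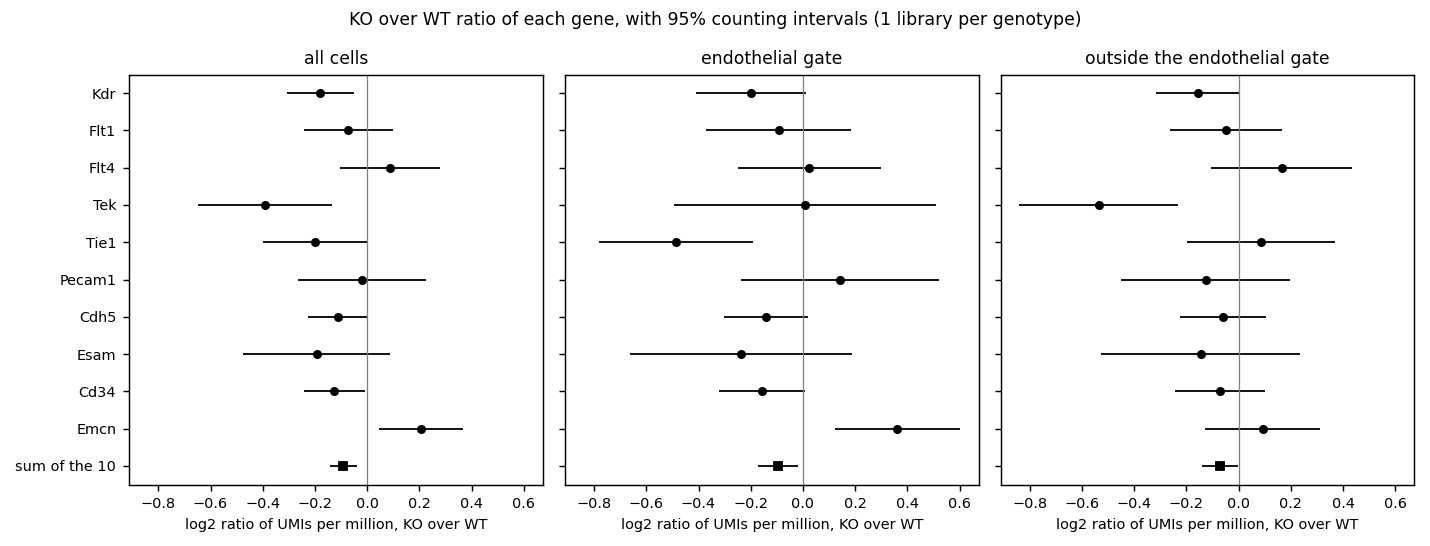
Log2 ratio of KO over WT of each gene and of their sum (square) over all cells, in the endothelial gate and outside it, with bars for the 95% exact conditional interval. In the endothelial gate the intervals of Tie1 (−0.49) and Emcn (0.36) lie off 0 among the single genes, and Tek lies off 0 over all cells (−0.39) and outside the gate (−0.53).

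Tie1 was the member that stood lowest in the KO gate. Its log2 ratio was −0.49 (−0.78 to −0.19), and it was below 0 in each group of the gate: −0.89 (−1.86 to 0.01) in arterial, −0.50 (−0.996 to −0.01) in venous, −0.40 (−1.003 to 0.19) in endocardial cells and −0.43 (−1.06 to 0.18) in cells of no subgate. Outside the gate Tie1 had 215 WT and 208 KO UMIs, a log2 ratio of 0.09 (−0.20 to 0.37).

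Emcn lay the other way. Its log2 ratio in the gate was 0.36 (0.12 to 0.60), but 0.20 (−0.06 to 0.47) with at least 4 endothelial markers, where the interval included 0. In the gate at 3 markers it was above 0 in all 4 groups: 0.62 (0.08 to 1.15) in arterial, 0.24 (−0.17 to 0.65) in venous, 0.48 (−0.14 to 1.13) in endocardial cells and 0.47 (0.00 to 0.94) in cells of no subgate. Outside the gate it was 0.09 (−0.13 to 0.31). The KO gate held a larger share of endocardial cells (67 of 250) than the WT gate (60 of 333), and Emcn was lowest among endocardial cells in both libraries. The part of the mix of cells in the Emcn ratio was not tested.

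For Tek the interval lay below 0 outside the endothelial gate (−0.84 to −0.23) and included 0 within it (−0.49 to 0.51). These intervals overlapped, and the difference between them was not tested. Tek had 235 WT and 148 KO UMIs outside (log2 ratio −0.53), of which 127 and 71 were in ungated cells (−0.64, −1.08 to −0.21) and 81 and 57 in the cardiac muscle gate at 3 markers (−0.50, −1.01 to 0.01). The Tek level outside the gate was 11.8 CPM in WT and 8.12 CPM in KO, and that of erythroid cells 6.87 CPM (2.76 to 14.2) on 7 UMIs and 5.95 CPM (1.23 to 17.4) on 3 UMIs. The part of stray RNA was not tested. Cells were also split by the other members they held. With none, Tek had 135 WT and 72 KO UMIs (log2 ratio −0.77, −1.20 to −0.35). With 1 or 2 it had 66 and 31 (−0.93, −1.60 to −0.30), and with at least 3 it had 107 and 111 (0.09, −0.30 to 0.49). The intervals of the first and last of these groups did not overlap, and this difference was not tested either.

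**Figure D4:**
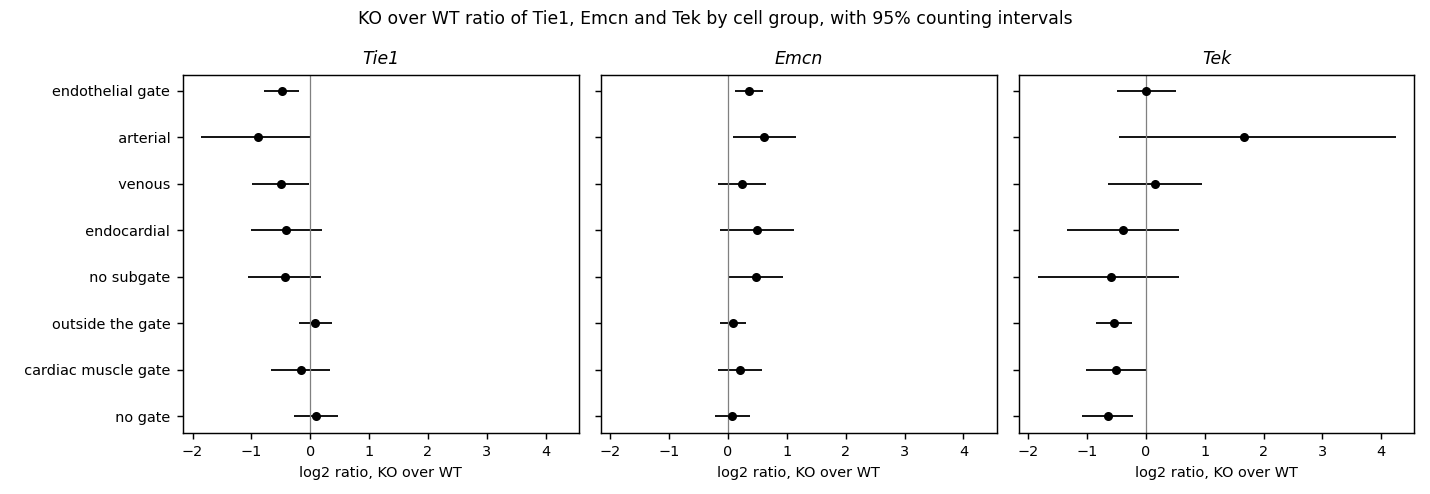
Log2 ratio of KO over WT of Tie1, Emcn and Tek in the endothelial gate, its 4 groups, the cells outside it, the cardiac muscle gate at 3 markers and ungated cells, with bars for the 95% exact conditional interval. Tie1 is below 0 and Emcn above 0 in all 4 groups of the gate, and Tek is below 0 in the 3 groups outside it.

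Endothelial cells were further placed in subgates by 8 markers each: arterial (such as Gja5, Hey1 and Dll4; 52 WT and 32 KO cells), venous (such as Nr2f2, Ephb4 and Aplnr; 113 and 89) and endocardial (such as Nfatc1, Npr3 and Tmem100; 60 and 67). The other 108 WT and 62 KO cells had none. The markers of each subgate summed highest in their own cells in both libraries, for example arterial markers to 1966 CPM in arterial and 211.5 in venous cells of WT. Cells were placed by these same markers, so this is no separate check of the subgates. Flt4 and Cd34 differed between them the same way in both libraries. Flt4 had 391 CPM in venous, 314 in arterial and 159.97 in endocardial cells of WT, and 408, 215 and 159 CPM in KO. The log2 ratio of endocardial over venous cells was −1.29 (−1.98 to −0.65) in WT and −1.36 (−1.98 to −0.77) in KO, and that of arterial over venous cells −0.32 (−0.89 to 0.23) and −0.93 (−1.71 to −0.21). Cd34 ran from 1165 CPM in arterial over 740.2 in venous to 474 in endocardial cells in WT and from 1085 over 741 to 468 CPM in KO. Arterial over endocardial cells gave a log2 ratio of 1.299 (0.88 to 1.72) in WT and 1.21 (0.79 to 1.64) in KO.

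Emcn had the same order, with 479, 345 and 224 CPM in arterial, venous and endocardial cells of WT and 735, 408 and 313 CPM in KO. Arterial over endocardial cells gave 1.10 (0.47 to 1.75) in WT and 1.23 (0.70 to 1.76) in KO. The steps between were less clear: arterial over venous was 0.47 (−0.02 to 0.96) and 0.85 (0.38 to 1.31), and endocardial over venous −0.63 (−1.23 to −0.05) and −0.38 (−0.86 to 0.09). Kdr was lower in endocardial than in venous cells in both libraries (−0.58, −1.05 to −0.14, in WT and −0.56, −0.99 to −0.14, in KO). In arterial cells it differed by library: 628 CPM (76 UMIs) in WT and 328 CPM (29 UMIs) in KO, which put arterial over venous cells at 0.20 (−0.21 to 0.61) in WT and −0.71 (−1.34 to −0.13) in KO. The difference between these ratios was not tested, and 32 KO cells stand behind it. Tek had 3 UMIs in the WT arterial cells, 24.8 CPM, against 98.7 in venous and 134 in endocardial cells, and 79.1, 109.6 and 103 CPM in KO. Flt1 in arterial over venous cells was at 0.59 (0.05 to 1.12) in WT and 0.45 (−0.16 to 1.03) in KO. Its arterial over endocardial ratio was 0.49 (−0.12 to 1.10) in WT and 0.66 (0.004 to 1.31) in KO. That of Cdh5 was 0.60 (0.22 to 0.98) in WT and 0.29 (−0.11 to 0.68) in KO. For Tie1, Pecam1 and Esam no interval between subgates lay off 0 in either library.

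**Figure D5:**
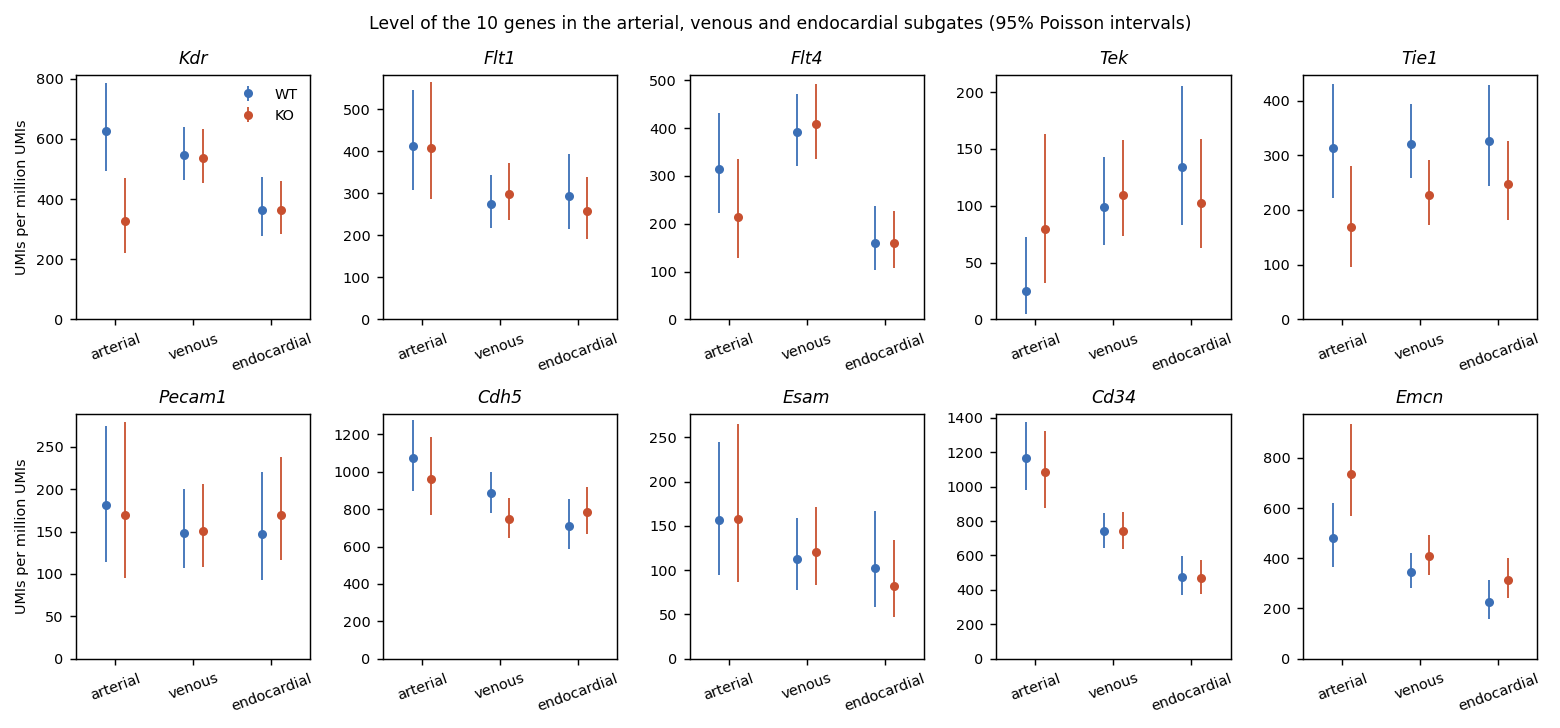
Level of each of the 10 genes (CPM) in the arterial, venous and endocardial subgates, with WT in blue, KO in red and bars for the 95% Poisson interval; each vertical axis starts at 0 and has its own scale. Flt4 is lower in endocardial than in venous cells and Cd34 and Emcn lower in endocardial than in arterial cells in both libraries, with bars that do not overlap.

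Other genes of these pathways were taken from a list of 35, of which 34 were measured. Over all cells 32 had enough UMIs, and 6 were at least 1.2-fold lower and 3 at least 1.2-fold higher in KO, with a median log2 ratio of −0.07. Over all genes these shares were 15.9% and 6.46%, so the list is near the background and its members are named as values only. The 6 were Hhex (−0.64), F11r (−0.44), Podxl2 (−0.40), Lmo2 (−0.36), Tal1 (−0.35) and Magi1 (−0.34). Hhex, Lmo2 and Tal1 are transcription factors of endothelium and blood, F11r encodes the junction protein JAM-A, and Magi1 a scaffold of cell junctions. Tal1 was highest in the erythroid gate, which held 474 WT and 197 KO cells, and the part of cell numbers in its ratio was not tested. The 3 higher were the ETS factor gene Fli1 (0.42), the sialomucin gene Cd164 (0.37) and Mef2c (0.27). In the endothelial gate 19 had enough UMIs, and 1 was past 1.5-fold: Lmo2, with 160 UMIs and 202 CPM in WT and 92 UMIs and 129 CPM in KO (−0.65, −1.03 to −0.27). Over all genes tested in the gate 2.91% were lower by that fold and 2.44% higher, so 1 of 19 is near the background.

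The 5 genes of the list with most UMIs in the gate were Ctnnb1 (β-catenin, which links cadherins to actin; 1043 CPM in WT and 1057.5 in KO), the ETS factor genes Elk3 (379 and 339) and Fli1 (335 and 406), Cd164 (268 and 385) and Afdn (305 and 284), a junction scaffold. The ligand, co-receptor and phosphatase genes that follow were chosen after their values were seen. Among the VEGF ligand genes, Vegfa had 27.7 CPM in the WT gate and 65.9 CPM outside it, and 32.2 and 60.1 CPM in KO. The VEGF co-receptor Nrp1 was highest in the gate, with 161 CPM in WT and 209 in KO (0.37, 0.02 to 0.72), whereas over all cells it was lower in KO (−0.24, −0.35 to −0.13). Vegfb had 94.5 and 72.8 CPM in the WT and KO gate and 165 and 152 CPM outside it. Vegfc lay the other way, with 29.0 CPM on 23 UMIs in the WT and 49.0 CPM on 35 UMIs in the KO gate, and 21.1 and 21.5 CPM outside it. Ptprb, the phosphatase of TIE2, had 84.4 and 82.6 CPM in the gate and 5.30 and 4.66 CPM outside it.

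The genes whose pattern over gates was most like the mean of the members were Gngt2, Gimap6, Cd93, Tnfaip2, Gimap4, Pdgfb, Stab1, 8430408G22Rik, Gja4 and Klf2, among 10398 genes that were neither members nor gate markers. Their Pearson correlation over the 11 gates with cells in WT, on log2(CPM + 10), was 0.98 to 0.99. In KO it was 0.59 to 0.95, and 0.92 to 0.99 over the 10 gates of at least 50 cells, which leave out a megakaryocyte gate of 4 cells. Such values follow from a single high gate and are given as a description. Taken one by one, the gene with the highest correlation in WT was Eng for Kdr, Igf1 for Flt1, Prkch for Flt4, Calcrl for Tek, Rab11a for Tie1, Tbxa2r for Pecam1, Bcl6b for Cdh5, Klf2 for Cd34, Cd93 for Emcn and Ptprb for Esam. In KO the correlation of these pairs was lower, at 0.41 for Tek, 0.49 for Cd34, 0.61 for Esam, 0.63 for Kdr and 0.86 to 0.93 for the others. The same pairs in KO, over the gates of at least 50 cells, were at 0.90 for Tek, 0.93 for Cd34, 0.93 for Esam and 0.90 for Kdr. For the others they were at 0.85 to 0.92. Each gene was picked for its highest WT value, so a lower KO value is no separate result. Over the gates of at least 50 cells the gene was another one for 6 members (Exoc3l4 for Kdr, Lyn for Tek, Cd93 for Tie1, Tnfaip2 for Pecam1, Gimap6 for Cdh5 and Prkch for Cd34). Klf2 had 147 CPM in the WT and 67.2 CPM in the KO endothelial gate, and Cd93 183 and 210.1 CPM.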

How the data were processed

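Per the labels and the study's methods, the authors aligned reads with Cell Ranger 1.3.1 (mm10 per the labels), removed cells under 200 or over 6000 UMIs or with under 200 genes, genes found in under 3 cells, mitochondrial and ribosomal UMIs and doublets, and worked in Scanpy. The deposited values are a signal, the square root of UMIs scaled to 1 total per cell, and whole UMIs were recovered from them: 100% of values above 0 came out whole within 0.01. UMIs were summed by gate, and a level is UMIs per 1000000 UMIs (CPM). Intervals at 95% are exact (Poisson for levels, conditional binomial for ratios, Clopper-Pearson for shares) and cover counting error only. Those of ratios were tried on simulated independent Poisson counts, which they assume, so clustering of UMIs in cells was not tested. A count of 0 allows up to 3 counts. Depth was 20781384 UMIs in WT and 18936857 in KO. No doublet caller was run, and leaving out the 5% deepest cells was tried instead. Thinning drew 1000 UMIs from each cell (seed 1).

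With 1 library per genotype, ratios have no replicate check and no test was made. Genes with at least 200 UMIs over all cells, or 100 in the endothelial gate, entered counts. Members and lists were chosen with earlier results of these data known. All 10 members were named, as were, from the list of pathway genes, those past the fold and the 5 with most UMIs in the gate, and the genes with the highest correlation over gates among those with at least 200 UMIs that were neither members nor markers. Python 3.11.15, numpy 2.4.6, scipy 1.17.1, pandas 2.3.3 and matplotlib 3.10.9 were used.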

Additional observations from a re-analysis of the deposited data

How the results depend on the processing

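No paired analysis was possible because each genotype had 1 library, and for the same reason no replicate could be left out. The summed log2 ratio of KO over WT over all cells (−0.09) was −0.035 with median of ratios scaling, −0.037 with the trimmed mean, −0.20 as a mean over cells and −0.25 after thinning to 1000 UMIs, and the other scalings moved every gene by 0.06 and 0.05 on the log2 scale. The share of member UMIs in the endothelial gate (45.7% in WT and 45.0% in KO) was 48.3% and 49.4% with at least 2 markers, 34.85% and 36.3% with at least 4, 53.2% and 53.7% with no exclusion by other classes, 40.3% and 39.1% without the 5% deepest cells, and 22.6% and 15.1% with the gate set after thinning. That last gate put the log2 ratio of the endothelial share at −0.85, and the log2 ratio of the share of cells with at least 3 members (−0.01) was −0.31 after thinning. The cause was not tested. Past a fold of 2, the list of pathway genes had 0 genes over all cells (9 at 1.2-fold) and 0 in the endothelial gate (1 at 1.5-fold). In the gate Tie1 ranged from −0.60 to −0.36 and Emcn from 0.20 to 0.49 over 11 alternatives, and Tek over all cells from −0.53 to −0.34 over 6. Flt4 over all cells (0.09) was below 0 in 2 of 6. Of the alternative ratios of members and their sum, 57 lay within the main interval and 9 beyond it over all cells (Kdr, Pecam1, Cdh5 and Cd34 after thinning, Cdh5 as a mean over cells, and the sum under 4 settings), and 118 within and 2 beyond it in the gate (Flt4 and Esam with the gate set after thinning).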
